A study of Rattus norvegicus with 8 samples.

Results

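The genes described here are 9 enzymes of the methionine cycle and of the one-carbon reactions joined to it: Mat1a, Mat2a, Gnmt, Ahcy, Bhmt, Cbs, Cth, Pemt and Shmt1. They were taken by name: each spot that is not a control spot and whose gene name in the scanner files equals one of the 9 was used, and the rule reads no measured value, although the genes were proposed with earlier results of these data known. All 9 were found, by 12 probes, among 36157 genes or names on the array, of which 21874 were bright enough to be tested, all 9 of them included. RNA from livers of male Wistar rats was measured with Agilent rat arrays in a single colour, with each rat, by its label, on its own array. The 4 STL rats were given 1.65 g/kg body weight of butyrate-containing structured lipids (STL) every day by gavage. The 4 control rats were given maltodextrin, 3.0 g/kg body weight, which carried the same energy. Both groups went through the resistant hepatocyte model, a chemical protocol of liver carcinogenesis, begun 2 weeks after the first dose, and livers were taken 8 weeks after it. The controls are therefore livers under carcinogenesis too, and no liver without it was analysed here. The labels say that the groups were matched for age and give no age.

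In liver, S-adenosylmethionine (SAM), the methyl donor of most methylation reactions, is made from methionine by methionine adenosyltransferases. Methyl transfer leaves S-adenosylhomocysteine, which is split to homocysteine; homocysteine is either methylated back to methionine or passed through transsulfuration to cysteine, the building block of glutathione. Hepatocytes carry most of the body's methionine metabolism, and the replacement of the liver enzyme Mat1a by Mat2a, the form of dividing and non-hepatic cells, is a known feature of liver cancer in rodents and humans.

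The arrays lay on 1 slide with 1 scan time, the 75th percentile of signal was between 304 and 604, and the share of probes well above background ranged over the arrays from 54.2% to 62.9%. The arrays of control 1 and control 2 differed over repeated probes by 1.05 times the noise between spots of an array. In the other pairs this ratio was 2.09 or more. Whether these 2 arrays hold RNA of 2 animals or of 1 was not tested. They were averaged to 1 sample, so 3 control samples were set against 4 STL samples. The next closest pairs crossed the groups: control 1 and control 2 with STL 6, at 2.09 and 2.12. All other pairs within a group were at 2.66 or more. Values below are normalised log2 signals, in which 0 is the 75th percentile of the array, and differences are STL minus control. Levels are not compared between probes. The number of arrays limits the precision. With limma, Benjamini-Hochberg adjustment and a threshold of 0.05, 1 gene of 21874 passed (0.00457%), Cish, which is no methionine cycle gene and is named because it is the only one.

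Of the 9 genes, 8 had a higher mean signal in STL livers than in control livers, and Mat2a had a lower one. None passed the threshold: 0 of 9 by limma, with adjusted p between 0.173 for Shmt1 and 0.589 for Mat2a. At an unadjusted limma p under 0.05 there were 3 of 9, Shmt1, Cbs and Gnmt, all higher in STL, beside 18.9% of all genes tested (11.5% higher and 7.41% lower). The median difference of the 9 genes was 0.52, against 0.06 over all genes tested, and 57.9% of all genes had a difference above 0. Without control 4 the median of the 9 genes was 0.27. Shmt1 was the only member whose 4 STL samples all lay above the 3 control samples, 1 of 9 where 11.1% of all genes tested did so.

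Mat1a encodes the methionine adenosyltransferase of mature hepatocytes. Its signal was 8.24 in STL 5, 8.44 in STL 6, 9.15 in STL 7 and 8.72 in STL 8, against 8.54 in the averaged control 1 and 2, 8.01 in control 3 and 7.80 in control 4. Control 3 and control 4 lay below every STL liver, while the averaged control lay inside the STL range. The means were 8.64 ± 0.40 (SD, n = 4) in STL livers and 8.12 ± 0.38 (SD, n = 3) in controls, a difference of 0.52 (SE 0.25), or 1.43-fold, which did not pass (limma adjusted p = 0.299). Its probe lies on the plus strand at chr16:17563912-17563971 of rn4, the build of the scanner files.

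Mat2a encodes the catalytic subunit of the adenosyltransferase found outside the mature hepatocyte, and it had 2 probes on chromosome 4. The brighter one had signals of -1.58, -1.38, -1.61 and -1.51 in STL 5 to 8, against -0.89 in the averaged control, -1.59 in control 3 and -1.50 in control 4. Only the averaged control stood apart, and the groups overlapped: -1.52 ± 0.10 (SD, n = 4) in STL livers and -1.33 ± 0.38 (SD, n = 3) in controls, a difference of -0.19 (limma adjusted p = 0.589). Without the averaged control the difference was 0.02, so its sign rests on that sample. The dimmer probe, on chr4:105739956-105740015, gave -1.98, -2.10, -2.71 and -2.40 in STL 5 to 8, against -1.71 in the averaged control, -1.86 in control 3 and -1.88 in control 4. By that probe every STL liver lay below every control liver, as did 5.66% of all genes tested. Its difference was -0.48 (SE 0.20), with a limma adjusted p of 0.255 over 26978 probes. Both probes were well above background on all 8 arrays and both were lower on average in STL livers, but they ordered the samples differently. Mat2b, the regulatory subunit that binds the Mat2a protein, differed by -0.07 (limma adjusted p = 0.699).

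The sequence of the brighter Mat2a probe is shown with those of Gnmt, Cth and Shmt1 as examples of the letters behind the values of these genes, from Mat2a with probes that order the samples differently to Shmt1 with groups apart. All 4 are 60 bases long, are written 5′ to 3′ as the scanner files give them, and hold at least 1 reading frame without a stop codon before their last codon. No letters are in capitals.
Mat2a, chr4:105740088-105740147 (rn4, minus strand): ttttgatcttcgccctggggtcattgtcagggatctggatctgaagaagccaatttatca
Gnmt, chr9:10130178-10130237 (rn4, plus strand): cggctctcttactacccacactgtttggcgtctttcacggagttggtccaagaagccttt
Cth, chr2:256069319-256069378 (rn4, minus strand): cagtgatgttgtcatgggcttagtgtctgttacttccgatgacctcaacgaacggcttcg
Shmt1, chr10:46936605-46936664 (rn4, minus strand): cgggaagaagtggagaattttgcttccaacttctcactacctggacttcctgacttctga

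Gnmt encodes glycine N-methyltransferase, an abundant liver enzyme that spends SAM on glycine and so keeps the ratio of SAM to its product in check. Its signal was 6.87, 6.60, 7.48 and 7.40 in STL 5 to 8, against 7.07 in the averaged control, 6.22 in control 3 and 5.43 in control 4. Control 4 was the lowest sample and control 3 the next, and the averaged control lay above STL 5 and STL 6. The means were 7.09 ± 0.42 (SD, n = 4) in STL livers and 6.24 ± 0.82 (SD, n = 3) in controls, a difference of 0.85 (SE 0.37), or 1.80-fold (limma adjusted p = 0.264). Without control 4 it was 0.44.

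Pemt, which methylates phosphatidylethanolamine to phosphatidylcholine in hepatocytes, uses SAM as well. Its brightest probe gave 5.69, 5.43, 5.34 and 5.65 in STL 5 to 8, against 5.43 in the averaged control, 5.47 in control 3 and 4.67 in control 4. Control 4 alone stood below the other samples, and the other controls lay within the STL range. The difference was 0.34 (SE 0.20, limma adjusted p = 0.375), and 0.08 without control 4. The other probes differed by 0.33 each, and 1 of them spans 2639 bases of rn4 on chromosome 10 with its 60 bases. The brightest is listed without a position.

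Ahcy, adenosylhomocysteinase, removes the product that inhibits methyltransferases. Its signal was 7.47, 7.26, 7.96 and 7.86 in STL 5 to 8, against 7.65 in the averaged control, 7.09 in control 3 and 6.56 in control 4. The 7 samples stood in the same order as for Gnmt. The difference was 0.54 (SE 0.27), with means of 7.64 ± 0.33 (SD, n = 4) in STL livers and 7.10 ± 0.54 (SD, n = 3) in controls (limma adjusted p = 0.307), and it was 0.27 without control 4. The probe lies at chr3:145545033-145545091 of rn4.

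Bhmt, betaine-homocysteine methyltransferase, returns homocysteine to methionine with a methyl group of betaine. Its signal was 9.03, 8.66, 9.99 and 9.18 in STL 5 to 8, against 9.01 in the averaged control, 8.93 in control 3 and 8.63 in control 4. STL 7 stood above the rest, and STL 6 lay between control 4 and control 3. The difference was 0.36 (SE 0.29, limma adjusted p = 0.509). It was 0.10 without STL 7, and -0.11 with quantile normalization, so its size rests largely on 1 liver and its direction depends on the scaling.

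**Figure D1:**
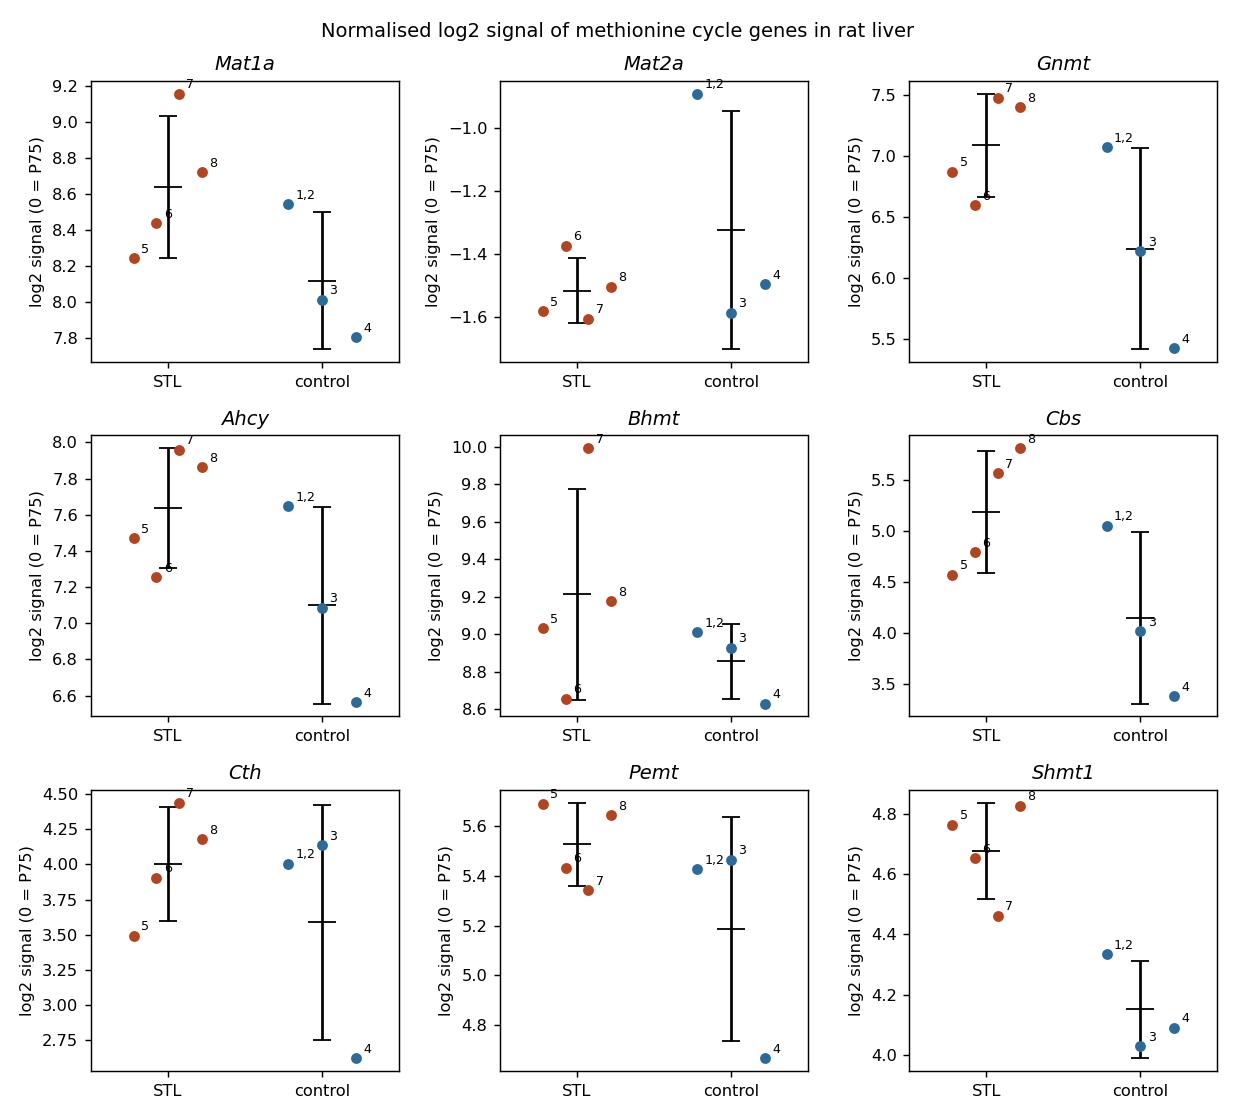
Normalised log2 signal (vertical axis, 0 is the 75th percentile of the array, abbreviated P75) of the 9 genes, with a panel for each gene and the 4 STL samples left of the 3 control samples; numbers beside points are the labelled rats, and bars show the mean and 1 SD. Shmt1 has no overlap between groups, whereas in Mat1a, Gnmt, Ahcy and Cbs the averaged control 1 and 2 lies inside the STL range and control 4 is the lowest sample.

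Cbs, cystathionine beta-synthase, joins homocysteine to serine and commits it to cysteine. Its signal was 4.57, 4.79, 5.56 and 5.81 in STL 5 to 8, against 5.05 in the averaged control, 4.02 in control 3 and 3.39 in control 4. Control 4 and control 3 lay below every STL liver, and the averaged control lay above STL 5 and STL 6. The means were 5.18 ± 0.60 (SD, n = 4) in STL livers and 4.15 ± 0.84 (SD, n = 3) in controls. The difference of 1.03 (SE 0.42), or 2.05-fold, with 0.08 and 1.99 as the bounds of the 95% interval, was the largest of the 9 genes and did not pass (limma adjusted p = 0.242); without control 4 it was 0.65. The probe lies on chr20:10047648-10047707 in rn4.

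Cth, cystathionine gamma-lyase, completes the route by releasing cysteine. Its signal was 3.49, 3.91, 4.44 and 4.18 in STL 5 to 8, against 4.00 in the averaged control, 4.14 in control 3 and 2.62 in control 4. Control 4 stood below all other samples, and the other 2 controls lay inside the STL range. The difference was 0.42 (SE 0.37, limma adjusted p = 0.547), and it was -0.07 without control 4. The higher mean of Cth in STL livers therefore rests on that control.

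Shmt1, cytosolic serine hydroxymethyltransferase, moves a carbon of serine onto tetrahydrofolate and feeds the folate pool. Its signal was 4.76, 4.65, 4.46 and 4.83 in STL 5 to 8, against 4.33 in the averaged control, 4.03 in control 3 and 4.09 in control 4. Each STL liver was above each control. The means were 4.68 ± 0.16 (SD, n = 4) in STL livers and 4.15 ± 0.16 (SD, n = 3) in controls, which is 0.52 higher in STL livers (SE 0.13), or 1.44-fold, with 0.23 and 0.82 as the bounds of the 95% interval. Over all genes the limma adjusted p was 0.173, and Shmt1 stood at rank 383 of 21874 by p. With single samples left out the difference stayed between 0.46 and 0.62, and with array weights, which let noisier samples count less, it was 0.64 and passed (limma adjusted p = 0.0338), the only setting of those run in which any of the 9 genes did. The weights were 3.18 for control 3 and 2.12 for STL 8, the lowest and the highest Shmt1 samples. In the other samples they were between 0.41 and 0.93, so the weighted difference leans on those 2 samples. With these weights 1530 of 21874 genes passed (6.99%, with 4.16% higher and 2.84% lower in STL). Of the other genes of one-carbon metabolism named below, Amd1, Aldh1l1, Tpmt and Chpt1 passed too.

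**Figure D2:**
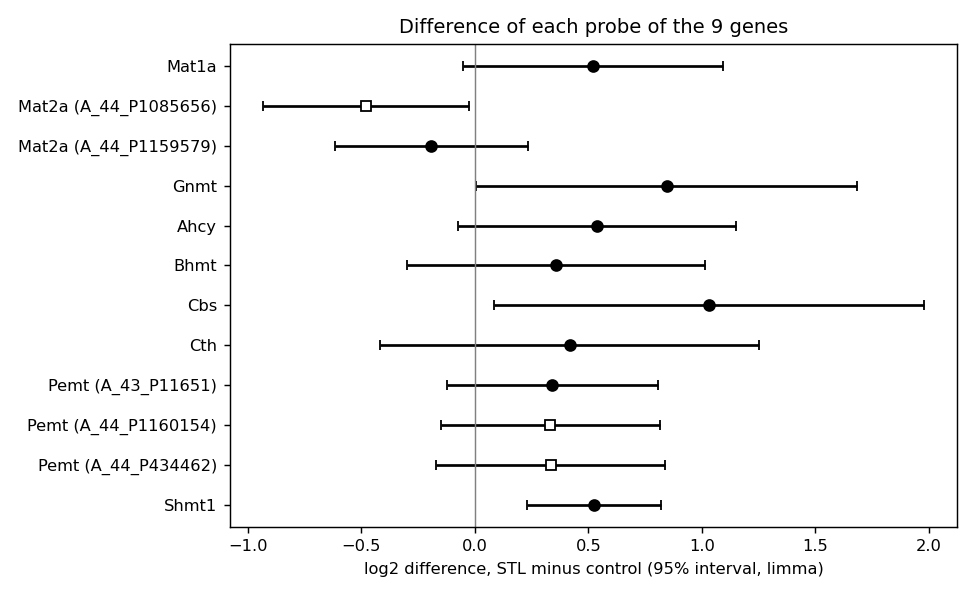
Log2 difference, STL minus control (horizontal axis), of each of the 12 probes of the 9 genes, with its 95% interval from limma fitted over 26978 probes; filled circles are the probe that stands for the gene and open squares the other probes. Intervals of Shmt1, Cbs, Gnmt and the dimmer Mat2a probe lie off 0 before adjustment, and the 3 Pemt probes have like differences of 0.33 and 0.34.

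The order of the samples was shared by several of the 9 genes. Control 4 was the lowest of the 7 samples in 7 of 9 genes, the exceptions being Mat2a and Shmt1, and control 4 and control 3 were the lowest pair in 5 of 9, which were Mat1a, Gnmt, Ahcy, Cbs and Shmt1. The averaged control lay inside the STL range in 7 of 9. The share of all genes tested with these orders was not counted, so they are not shown to be particular to the 9 genes. Over repeated probes of the whole array, control 4 differed from control 1 and control 2 by 5.08 and 5.07 times the spot noise. For control 3 the same ratios were 3.30 and 3.42. The mean of the centred signals of the 9 genes was between -0.02 and 0.47 in STL livers, against 0.18 in the averaged control, -0.25 in control 3 and -0.76 in control 4. Arrays in the same column of the slide, 1 STL and 1 control in each of 4 columns, differed for Shmt1 by 0.37, 0.38, 0.43 and 0.74, all higher in STL. For Cbs the same differences were -0.47, -0.27, 1.55 and 2.42, so they were of both signs, as they were for the other members except Mat2a. For Mat2a the brighter probe differed by -0.66, -0.52, -0.02 and -0.01, lower in STL in each column. The first and second columns hold the near-identical arrays of control 1 and control 2. When the column of the slide entered the fit as a block, with 8 arrays, none of the 9 passed, and Shmt1 had a limma adjusted p of 0.175.

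**Figure D3:**
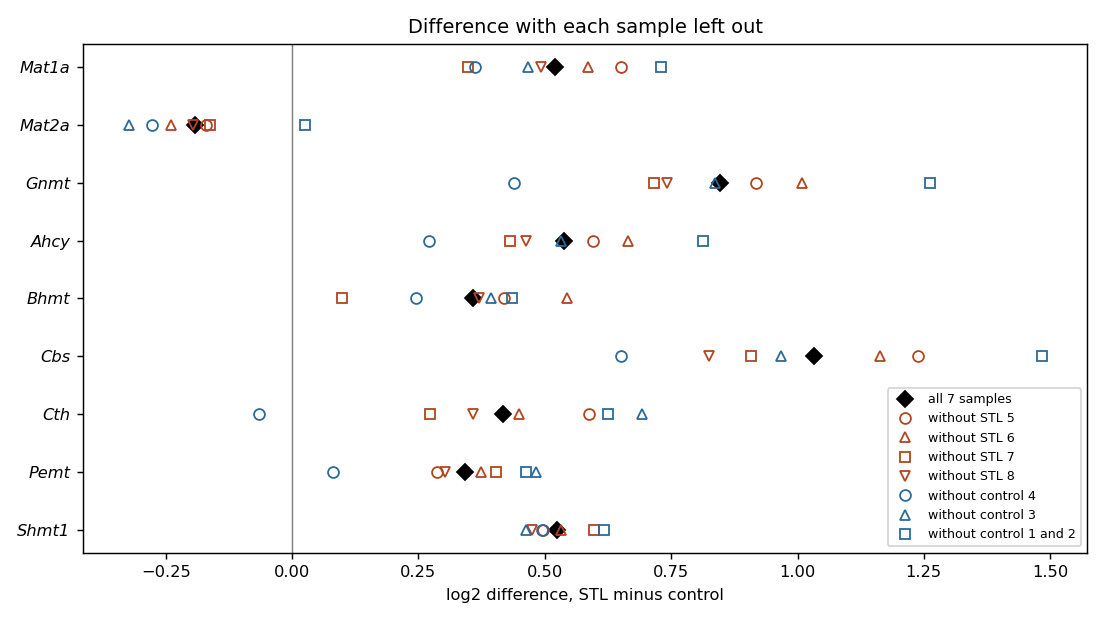
Log2 difference, STL minus control (horizontal axis), of the 9 genes with all 7 samples (filled diamonds) and with each sample left out in turn (open symbols, STL samples in red-brown and control samples in blue). Without control 4 the difference of Cth is -0.07 and that of Pemt 0.08, while Shmt1 stays between 0.46 and 0.62.

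With each sample left out in turn, the difference was between 0.35 and 0.73 for Mat1a, between 0.44 and 1.26 for Gnmt, between 0.27 and 0.81 for Ahcy and 0.65 or more for Cbs. In each of these the highest value came without the averaged control, and in Gnmt, Ahcy and Cbs the lowest came without control 4. The range was 0.10 to 0.54 for Bhmt, -0.07 to 0.69 for Cth, 0.08 to 0.48 for Pemt and -0.32 to 0.02 for Mat2a.

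Markers of cell types differed along the same samples. The labelled tissue held its markers: all 8 of 8 hepatocyte markers, among them Alb, Ttr and Apoa1, were well above background on all 8 arrays. Of them 7 of 8 had a difference above 0, with a median of 0.35, and 0 of 8 passed. Their mean centred signal was between 0.05 and 0.53 in STL livers, against 0.13 in the averaged control, -0.23 in control 3 and -0.63 in control 4, the same ranking of the 3 controls as for the 9 genes. Markers of dividing cells (Mki67, Top2a, Ccnb1, Ccna2, Cdk1, Birc5 and Aurka) were between -0.79 and -0.27 in STL livers, against -0.51 in the averaged control, 1.31 in control 3 and 1.32 in control 4, and 6 of 7 had a difference below 0. The 6 markers of preneoplastic lesions tested, Gstp1 and Ggt1 among them, were between -2.27 and 0.78 in STL livers, with STL 6 highest, against 0.86 in the averaged control, 1.34 in control 3 and 2.6 in control 4. All 6 of 6 had a difference below 0, with a median of -2.86. Cholangiocyte and progenitor markers were between -1.18 and 0.25 in STL livers, against 0.14 in the averaged control, 0.13 in control 3 and 1.33 in control 4, so that control 4 alone lay outside the STL range. Stellate cell markers were between -0.45 and -0.02 in STL livers, against -0.04 in the averaged control, which lay inside that range, 0.22 in control 3 and 0.75 in control 4. None of these list members passed the threshold over all genes, and the part of these cells in the values of the 9 genes was not tested. In whole liver, fewer hepatocytes and less RNA per hepatocyte cannot be told apart.

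Macrophage, endothelial and lymphocyte markers had smaller shifts. The median difference was -0.14 over 7 macrophage markers, 0.15 over 5 endothelial markers and 0.17 over 5 lymphocyte markers, and 0 of each list passed. All 3 lists had differences of both signs: 2 of 7 macrophage, 3 of 5 endothelial and 3 of 5 lymphocyte markers were above 0. Of the cholangiocyte and progenitor markers 6 of 7 were below 0, and of the stellate cell markers 6 of 7. The member with the smallest p was C1qa, a complement gene of macrophages, at -0.26, Kdr, the endothelial receptor of VEGF, at 0.60, and Nkg7, a gene of cytotoxic lymphocytes, at 0.52. In the other lists it was Cyp2e1, a hepatocyte cytochrome P450, at 0.92, Krt19, a keratin of bile duct cells, at -1.48, Col1a2, a collagen chain, at -0.90, Top2a, a topoisomerase of dividing cells, at -2.02, and Aldh3a1, an aldehyde dehydrogenase of lesions, at -3.77.

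**Figure D4:**
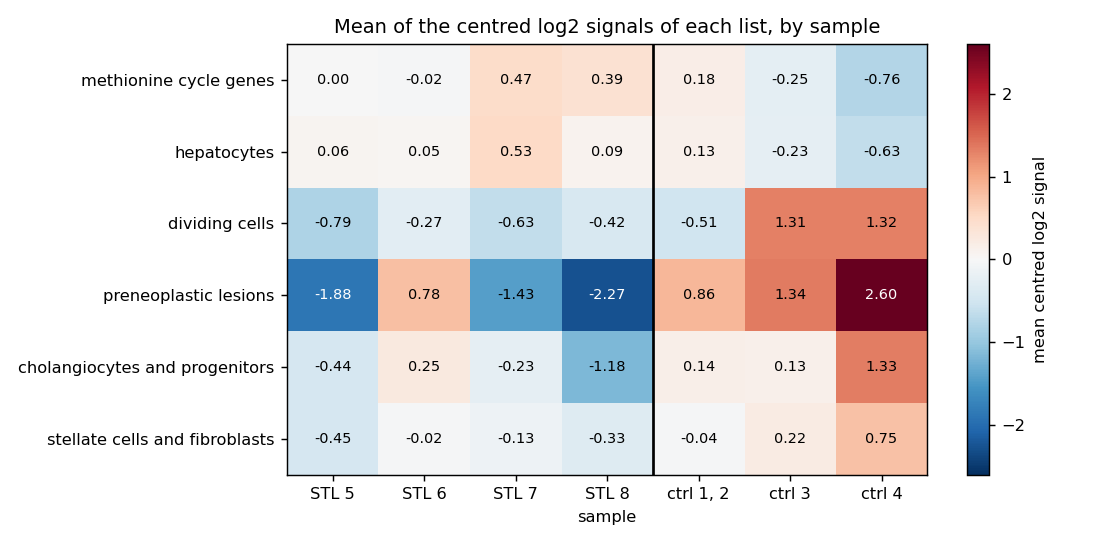
Mean of the centred log2 signals (colour and printed value) of the 9 methionine cycle genes and of 5 marker lists, in the 4 STL samples left of the line and the 3 control samples right of it. Control 4 has the lowest value for the 9 genes, -0.76, and for hepatocyte markers, -0.63, and the highest for lesion markers, 2.6.

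The other genes of one-carbon metabolism did not move as 1 block. In 8 lists 68 of 70 genes were tested, and 0 passed in either direction by limma. At an unadjusted p under 0.05 there were 12 higher and 6 lower of 68, beside 11.5% higher and 7.41% lower of all genes tested. Among the other genes of the methionine cycle, 4 of 7 had a difference above 0, the median was 0.16 and none had an unadjusted p under 0.05. Mtr, the vitamin B12-dependent methionine synthase that shares the remethylation step with Bhmt, differed by -0.17, and Bhmt2, the relative of Bhmt that uses S-methylmethionine, by -0.04. Mtrr, which reactivates methionine synthase, differed by 0.20, and Ahcyl1 and Ahcyl2, relatives of Ahcy, by 0.18 and 0.16. The 3 Ahcyl1 probes disagreed in sign, from -0.18 to 0.18.

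The folate enzymes and carriers had differences of both signs. Of 16 genes tested, 3 were higher and 4 lower at an unadjusted p under 0.05, beside 11.5% and 7.41% of all genes tested, and the median was -0.03. Shmt2, the mitochondrial relative of Shmt1, was 4.25, 4.19, 4.03 and 4.19 in STL 5 to 8, against 3.85 in the averaged control, 3.88 in control 3 and 3.53 in control 4. As with Shmt1, all STL livers lay above all controls, by 0.41 (SE 0.12, limma adjusted p = 0.18). In this list 2 of 16 genes had all STL samples above all controls and 3 of 16 had all below. Over all genes tested the shares were 11.1% and 5.66%. Aldh1l1, which oxidises 10-formyltetrahydrofolate in the cytosol and is abundant in liver, lay below every control in all STL livers, by -0.47 (limma adjusted p = 0.18), and its mitochondrial relative Aldh1l2 differed by -0.18. Mthfd2, a mitochondrial folate enzyme of embryonic and dividing cells, was -0.90, 0.49, -1.22 and -0.94 in STL 5 to 8, against 0.43 in the averaged control, 0.39 in control 3 and 0.34 in control 4. STL 6 lay above the controls and the other STL livers below them. The difference was -1.03 (limma adjusted p = 0.205). Without STL 6, the liver that went the other way, it was -1.41 and passed (limma adjusted p = 0.0167), as 1 of 45 among 21874 genes in that setting. Mthfd1l, which releases formate in mitochondria, differed by -1.31 (limma adjusted p = 0.192) with every STL liver below every control. It passed the background limit on 2 of 4 STL arrays and 4 of 4 control arrays. With normexp background correction its difference was -0.44. Mthfd1, the cytosolic enzyme, differed by 0.35.

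Serine synthesis had 3 of 3 differences below 0. Phgdh, the first enzyme of serine synthesis, was 0.20, 3.74, 1.49 and 2.0 in STL 5 to 8, against 2.55 in the averaged control, 2.86 in control 3 and 3.24 in control 4. STL 6 was the highest of all 7 samples, and the other STL livers lay below all controls. The difference was -1.03 (limma adjusted p = 0.417), -1.65 without STL 6 and -0.48 without STL 5. Psat1, the next enzyme, differed by -0.88 and by -1.25 without STL 6, neither passing (limma adjusted p = 0.252 and 0.0655). With the mean of its 2 probes, 1 of which was too dim to be tested, Psat1 differed by -0.0559. Psph, the last, differed by -0.06. STL 6 also had the highest lesion score of the STL livers, 0.78, and a link between that score and these genes was not tested.

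Oxidation of choline, betaine and glycine had 10 of 10 differences above 0, from 0.00 to 0.90, with a median of 0.26 and 0 of 10 past the threshold. Pipox, peroxisomal sarcosine oxidase, which takes up the product of Gnmt, was higher by 0.44 (limma adjusted p = 0.183), and Chdh, which makes the betaine precursor from choline, by 0.44 (limma adjusted p = 0.222). In both, all STL livers lay above all controls, 2 of 10 in this list where 11.1% of all genes tested did so. Gldc, of the glycine cleavage system, differed by 0.90, with 4 probes between 0.19 and 0.90.

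Other methyltransferases gave 5 of 7 differences above 0, with a median of 0.20. Inmt, which methylates indoles and thioethers, was 2.88, 1.38, 2.50 and 1.68 in STL 5 to 8, against 1.68 in the averaged control, -0.47 in control 3 and -3.08 in control 4. The controls were spread over more than the groups were apart, and the difference was 2.73 (SE 0.93, limma adjusted p = 0.201) with all samples and 1.5 without control 4. Tpmt, thiopurine methyltransferase, differed by 0.47, and Gamt, which spends SAM on creatine, by 0.18, or 0.10 without control 4. In both, all STL livers lay above all controls, 2 of 7 in this list where 11.1% of all genes tested did so. The margins were small. Tpmt was 3.19 in STL 5 against 3.15 in the averaged control, and Gamt was 5.61 in STL 6 against 5.59.

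Downstream of Cth, 6 of 8 genes of cysteine and sulfide metabolism had a difference above 0, with a median of 0.33. Ethe1, a mitochondrial persulfide dioxygenase, was higher by 0.74 (limma adjusted p = 0.18), and Suox, sulfite oxidase, by 0.50 (limma adjusted p = 0.239). In both, the groups did not overlap, 2 of 8 in this list with all STL samples above, beside 11.1% of all genes tested. For Suox the margin was small, 3.34 in STL 5 against 3.32 in the averaged control. Without control 4 Suox differed by 0.24. Mpst, a sulfurtransferase, differed by 0.41, and by 0.15 without control 4. Of the polyamine and methionine salvage genes 5 of 10 had a difference above 0. Amd1, S-adenosylmethionine decarboxylase, which draws SAM into polyamines, was 3.96, 3.99, 4.38 and 4.38 in STL 5 to 8, against 3.48 in the averaged control, 3.46 in control 3 and 3.76 in control 4. All STL livers lay above all controls, by 0.61 (SE 0.15, limma adjusted p = 0.173), 1 of 10 in this list where 11.1% of all genes tested did so. Odc1, ornithine decarboxylase, which supplies putrescine, differed by -0.49 (limma adjusted p = 0.227), and Adi1, of methionine salvage, by 0.36, or 0.20 without control 4. In the CDP-choline route, the alternative to Pemt, the median was 0.06. Chpt1, its last enzyme, differed by 0.61 (limma adjusted p = 0.198), Pcyt1a, its regulated step, by -0.15, and Chka, a choline kinase, by -0.27.

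**Figure D5:**
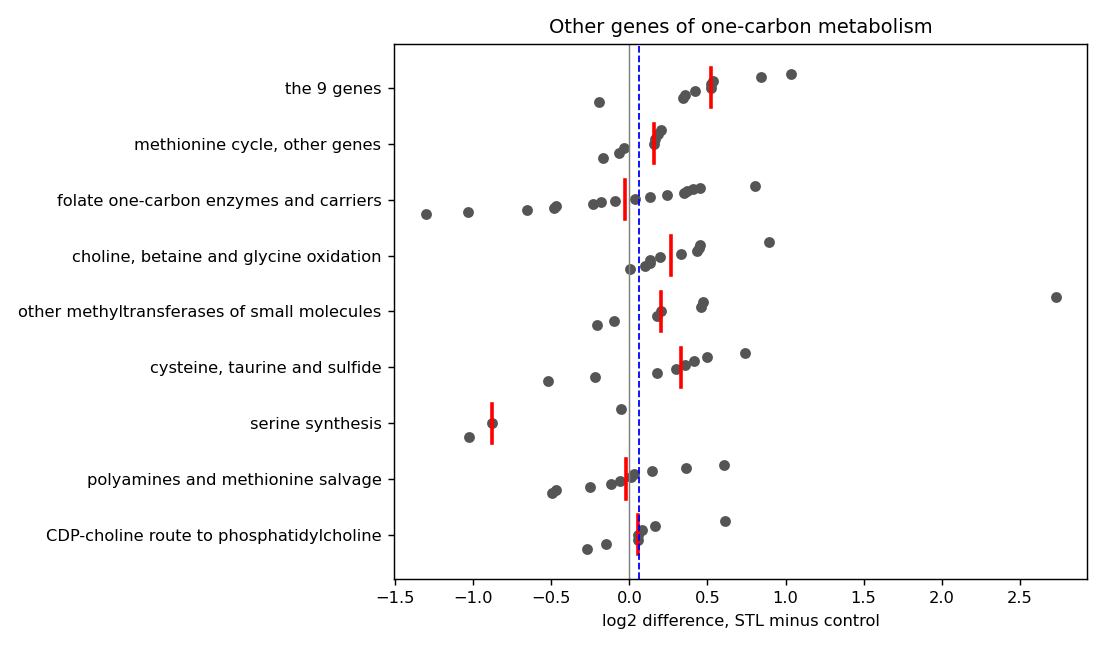
Log2 difference, STL minus control (horizontal axis), of each gene tested (grey points) in the 9 genes and in 8 lists of one-carbon metabolism; red bars are list medians and the dashed blue line is the median of all genes tested, 0.06. The 10 genes of choline, betaine and glycine oxidation lie at or above 0, whereas the folate list runs from -1.31 to 0.81.

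The genes whose pattern over the 7 samples was most like that of Mat1a, by Pearson's r over 21865 genes, were Snx27, a sorting nexin (r = 0.993, Spearman's rho = 1), a transcript listed only as ENSRNOT00000074215 (r = 0.986) and Bcl3, an NF-kB cofactor (r = 0.986). For Mat2a they were Cpsf2, a factor of mRNA 3′ end cleavage (r = 0.963), Ctdp1, an RNA polymerase II phosphatase (r = 0.950), and a transcript listed only as ENSRNOT00000009136 (r = 0.948). These are descriptions of the closest of many genes in few samples. Without the 2 samples farthest from the median, r was 0.979 for Snx27, 0.947 for ENSRNOT00000074215 and 0.960 for Bcl3. For Mat2a it was 0.731 for Cpsf2, -0.02 for Ctdp1 and -0.72 for ENSRNOT00000009136, so the likeness of the last pair rested on those samples.

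The 250 bases before the start of Mat1a, Mat2a, Gnmt and Shmt1 are shown as examples. Control 3 and control 4 were the lowest samples for Mat1a, Gnmt and Shmt1, and only Shmt1 had groups apart. Mat2a was lower on average in STL livers, which for its brighter probe rests on the averaged control. The sequences are RefSeq promoters of the GRCr8 assembly, 5′ to 3′, and promoters were found for all 9 genes. Capitals mark matches on either strand to 4 motifs. The TATA box was searched as TATAAA. The CCAAT box was searched by the letters of its name. The GC box was searched as GGGCGG. The E-box was searched as CACGTG.
Mat1a, chr16:17016918-17017167 (GRCr8, plus strand): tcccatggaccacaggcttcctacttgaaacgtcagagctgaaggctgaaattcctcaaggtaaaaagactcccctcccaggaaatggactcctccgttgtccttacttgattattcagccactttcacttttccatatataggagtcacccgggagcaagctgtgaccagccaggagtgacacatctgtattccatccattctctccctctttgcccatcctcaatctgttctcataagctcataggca
Mat2a, chr4:106053613-106053862 (GRCr8, minus strand): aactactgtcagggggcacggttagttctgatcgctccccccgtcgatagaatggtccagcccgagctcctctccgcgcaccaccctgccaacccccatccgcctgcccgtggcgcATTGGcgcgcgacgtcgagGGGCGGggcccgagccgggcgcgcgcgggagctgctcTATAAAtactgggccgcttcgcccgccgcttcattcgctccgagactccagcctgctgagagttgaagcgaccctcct
Gnmt, chr9:21752032-21752281 (GRCr8, plus strand): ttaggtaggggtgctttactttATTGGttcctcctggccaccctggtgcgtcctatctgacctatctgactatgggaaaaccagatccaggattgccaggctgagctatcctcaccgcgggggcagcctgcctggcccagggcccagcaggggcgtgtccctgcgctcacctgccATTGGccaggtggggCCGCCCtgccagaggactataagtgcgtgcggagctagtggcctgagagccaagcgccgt
Shmt1, chr10:45990342-45990591 (GRCr8, minus strand): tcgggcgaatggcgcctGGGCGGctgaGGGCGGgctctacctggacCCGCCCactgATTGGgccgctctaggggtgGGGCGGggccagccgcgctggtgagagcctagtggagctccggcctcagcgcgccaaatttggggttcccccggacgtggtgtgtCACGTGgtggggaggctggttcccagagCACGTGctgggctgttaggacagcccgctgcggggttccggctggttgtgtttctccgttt

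Mat1a held none of the 4 motifs in this window and had 48.0% G and C. Mat2a, at 67.6%, held 1 TATA box, 1 CCAAT box and 1 GC box. Gnmt held 2 CCAAT boxes and 1 GC box, and Shmt1 held 4 GC boxes, 1 CCAAT box and 2 E-boxes. Of 33469 promoters cut to the same window, 12.9% held the TATA box, 34.0% the CCAAT box, 30.5% the GC box and 5.59% the E-box. No motif overlapped another in the 4 sequences. A match is a run of letters and no evidence of binding.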

How the data were processed

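Each scanner file, as deposited, lists the intensity of every spot, extracted with Agilent Feature Extraction, version 11.5.1.1 per the file headers and 10.7 per the submitters' processing notes. The deposited series table holds intensity scaled per array on a linear scale, with column medians from 42.1 to 48.9 and no centring; no source used here gives its normalization. Of its 8 columns, 6 matched a different scanner file from the one their label points to, always within the group and 0 times across groups, which leaves rat numbers inside a group unsettled. Rats are numbered here by the scanner files.

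Spots flagged as non-uniform or population outliers were left out and the spots of a probe averaged. No spot was saturated. The processed signal was divided by the array's 75th percentile and put on the log2 scale. Probes were named by RefSeq accession (21109 of 45598), symbol (6684), synonym (424) or the file's name (17381). The brightest probe stood for a gene, and a gene was tested if its probe passed the background limit on 4 or more of 8 arrays. Control 1 and control 2 were averaged because their ratio of spread to spot noise, 1.05, was under a limit of 1.5. The comparison used R 4.3.3 and limma 3.58.1: lmFit, then eBayes with its trend option. Tests were two-sided and adjusted by Benjamini-Hochberg over all genes. The fit was also run on simulated data with noise drawn independently for each gene. Such data hold no shift shared by many genes of a sample, so the run cannot show how calls behave under one.

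The 9 genes and the lists were chosen with earlier results of these data known. Named were all 9 genes, the 3 genes of each pathway list with the smallest p, the gene of each marker list with the smallest p, 3 genes most like Mat1a and 3 most like Mat2a, and genes of a step shared with one of these. P-values measure the spread between the labelled rats. Alternatives were each array as a sample, median, quantile, normexp (offset 50) and series table values, other filters, the mean of probes, no trend, array weights, slide column as a block and each sample left out. Python 3.11.15, pandas 2.3.3 and matplotlib 3.10.9 were used.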

Additional observations from a re-analysis of the deposited data

Results flagged for a closer look

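Mpst, a sulfurtransferase of cysteine breakdown, was 1.18 in STL 7 and between 1.38 and 1.41 in the other STL livers. The gap from STL 7 to the nearest of them was 0.873 of the range of the group, past Dixon's 95% critical value for 4 samples. It was the only such gap among the 39 genes checked in the STL group, and chance gives about 1 in 20 groups. The 3 control samples were too few to be checked.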

How the results depend on the processing

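Over 18 alternatives, 158 of 162 differences of the 9 genes kept their direction and their side of the threshold. This count, like the one for other named genes below, includes settings that could not turn a difference. The filters and the fit without trend change only p-values, and the series table holds the same signals rescaled. The mean of probes changes only the differences of genes with more than 1 probe. The exceptions were Shmt1 with array weights, at 0.64, the only member called there (1 of 9, against 0 of 9 in every other setting), Mat2a at 0.0249 without control 1 and 2 (range with 1 sample left out -0.32 to 0.0249), Bhmt at -0.11 with quantile normalization and Cth at -0.0655 without control 4 (range -0.0655 to 0.69). The median of the 9 genes was 0.27 without control 4, 0.33 with quantile normalization and 0.40 with each array as a sample, against 0.52. It was 0.63 without control 1 and 2. Of 539 differences of the 30 other named genes 529 kept both, 5 passed the threshold and 5 turned, which were Bhmt2 at 0.0578 without STL 5 and 0.0135 without STL 6 (range -0.14 to 0.0578), Mtr at 0.0936 with normexp, and Psph at 0.0719 with array weights and 0.0270 without STL 5 (range -0.16 to 0.0270). The number of genes called over the whole table was 1 with all 7 samples, 21 with each array as a sample and 1530 with array weights, and with 1 sample left out it was between 1 and 214, with 214 without control 1 and 2, 45 without STL 6 and 3 without control 3. The cause was not tested. No paired analysis was possible because of unshared rat numbers, 1 to 4 and 5 to 8, if pairs are to come from the labels. Arrays could be paired by slide column, and with that block 0 of the 9 genes passed.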
